A study of Mus musculus with 28 samples.

Results

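The genes described here are Rad54l, Brca1, Brca2, Brip1, Exo1, Fignl1, Parpbp, Fancd2 and Neil3, which act in homologous recombination or in the repair of blocked replication forks. They were chosen by symbol from a table of 14219 genes, all 9 symbols were found, and each stood in 1 row. Pancreatic islets came from 28 male mice aged 10 to 12 weeks, of C57Bl6 and 129sv background, and each mouse gave 1 RNA library. Mice labelled βKlf6KO (Klf6flox/flox;Ins1Cre/+) carried loxP-flanked Klf6, which encodes a zinc finger transcription factor, and Cre recombinase at the β-cell gene Ins1. Mice labelled control (Klf6flox/flox;Ins1+/+) carried the same floxed alleles without Cre. Mice of each genotype received either saline or the insulin receptor antagonist peptide S961. The libraries numbered 6 for βKlf6KO after saline, 6 for control after saline, 8 for βKlf6KO after S961 and 8 for control after S961. Islets of each mouse, 120 to 150 in number, were kept overnight in culture before extraction. Whole islets hold other endocrine cells, vessel cells and immune cells beside the β cells in which Ins1Cre acts.

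Homologous recombination repairs a DNA break by copying the intact sister chromatid, so it runs mainly during and after DNA replication. The broken ends are resected to single strands, which then pair with the matching sequence of the sister with the help of Brca2 and its partners. The Fanconi anaemia proteins work with this pathway where strands are crosslinked or a fork has stalled. Many of these genes are transcribed in dividing cells and little in resting ones, and adult β cells rarely divide.

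The libraries held 28868638 to 45001633 reads over the listed genes. Levels are given in CPM, reads of a gene scaled by library size, and tests used the deposited log2 CPM. A principal component analysis put 54.9% of the variance on its first axis, and control S961 replicates 2 and 8 and control saline replicate 4 lay farthest out on it. The genotype labels were checked on Klf6, which had 103, 119 and 170 CPM in βKlf6KO saline libraries (lowest, median and highest), against 81.7, 127 and 204 CPM in control saline libraries. The log2 difference was -0.03 (exact two-sided permutation test, p = 0.890). After S961 it had 83.3, 162 and 246 CPM in βKlf6KO and 72.4, 111 and 342 CPM in control libraries, a log2 difference of 0.28 (exact two-sided permutation test, p = 0.389). The log2 ratio of Ins1 to Ins2, which the Cre insertion could lower, was -1.29 ± 0.27 in βKlf6KO and -1.63 ± 0.77 in control islets after saline. It was -1.94 ± 0.48 in βKlf6KO and -1.31 ± 0.69 in control islets after S961, with exact permutation p = 0.357 after saline and 0.0558 after S961. The adjusted exact p-values of these 4 checks were 0.223 to 0.890. Neither Klf6 nor the ratio passed a test between the labelled genotypes, and the ratio was lower in βKlf6KO only after S961, by 0.62 on the log2 scale, and 0.34 higher after saline. The ratio ran from -2.35 to -0.49 in control saline and from -2.38 to -0.26 in control S961 libraries. In βKlf6KO libraries it ran from -1.81 to -1.05 after saline and from -2.25 to -0.86 after S961. The genotypes below are therefore the labelled ones, and whether any labels were exchanged was not tested. Ins1Cre acts in β cells and other islet cells also express Klf6; reads from exons outside the floxed part would count too, and how far these bear on the check was not tested.

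After saline, 8 of the 9 genes were higher in βKlf6KO than in control libraries, and Brca2 did not pass the test. The median log2 difference of the 9 was 2.17, against -0.0005 over all 13591 genes tested. As the 9 genes were chosen with earlier results of these data known, the contrasts with all genes given here are descriptions. A gene was called at an adjusted p below 0.05, and 2.09% of all tested genes were called higher in this comparison. For the same 8 genes, each of the 6 βKlf6KO libraries lay above each of the 6 control libraries, a pattern that 2.46% of tested genes showed. All 9 passed the filter of 1 CPM in at least 6 libraries, but Rad54l and Exo1 reached 1 CPM in 8 libraries each, 6 of them βKlf6KO saline. These 2 genes therefore entered the test through the group where they were high, and a fit with no filter also called 8 of the 9. The 8 were called in each of 28 fits that left out 1 library, with a highest adjusted p of 0.0237, for Brca1 without control saline replicate 3. Leaving out an S961 library does not change these differences and alters only the shared estimate of the spread. In bulk islet RNA, more expressing cells and more RNA per cell cannot be told apart.

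**Figure D1:**
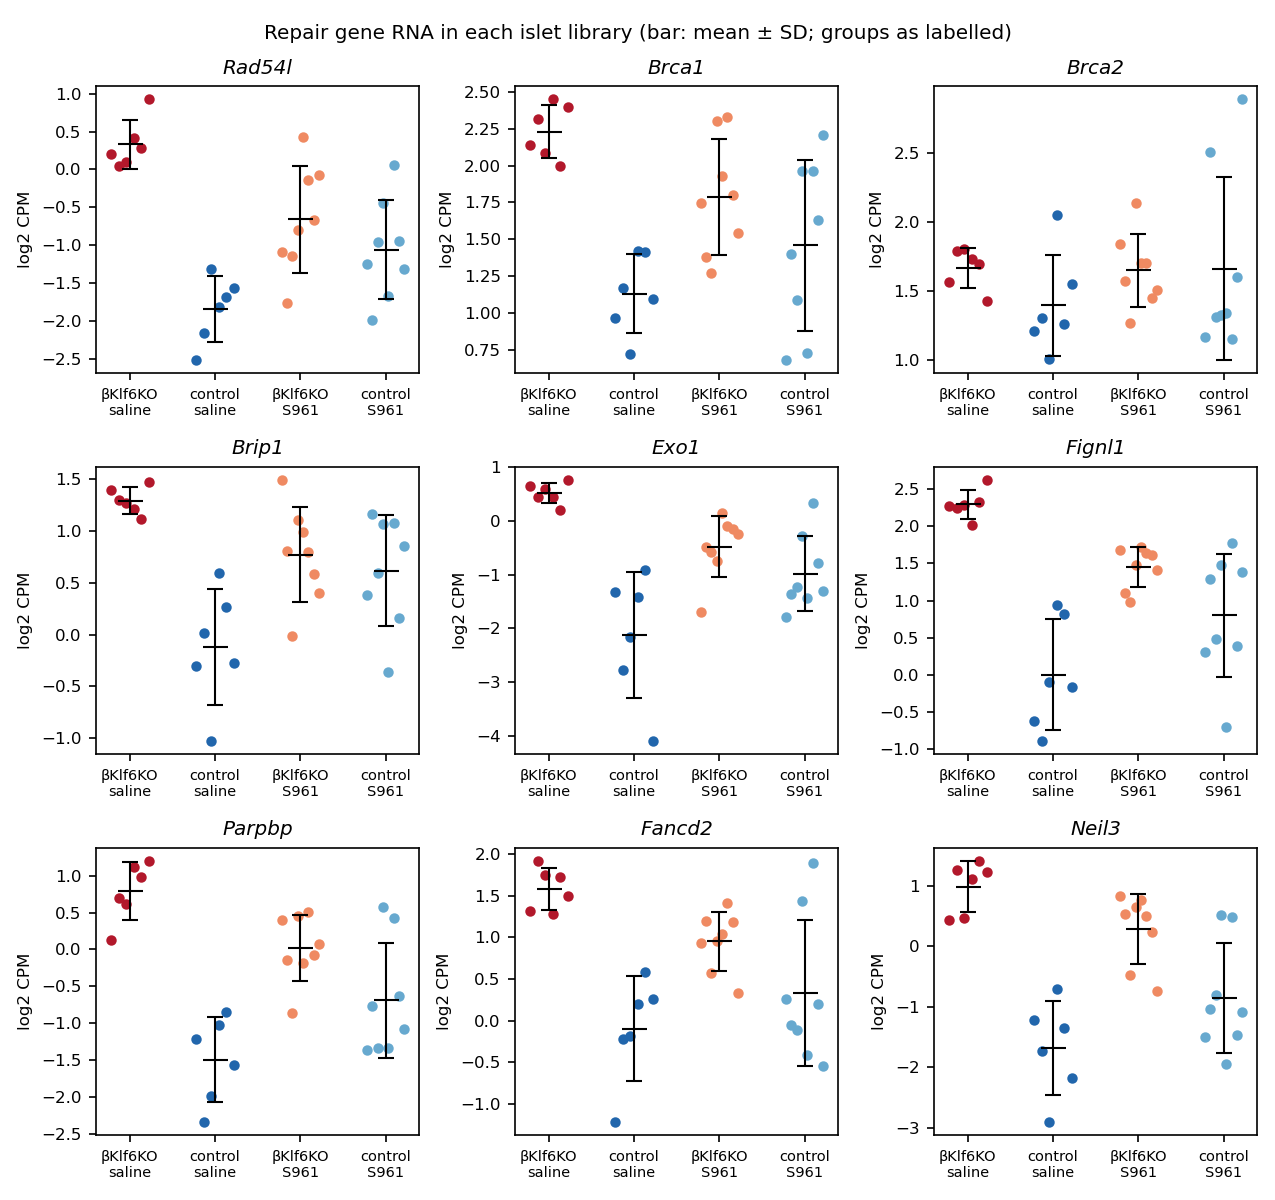
The level of each of the 9 genes in log2 CPM (vertical axes, scaled per gene), with 1 point per library and the mean ± SD as a bar, for βKlf6KO saline (6), control saline (6), βKlf6KO S961 (8) and control S961 (8) libraries. The βKlf6KO saline points stand above every control saline point for 8 genes, and the Brca2 points of those groups overlap.

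Exo1 is the exonuclease that, with other nucleases, lengthens the single-stranded tails at a break. It had 1.16, 1.44 and 1.69 CPM in βKlf6KO saline libraries (lowest, median and highest of 6), against 0.0583, 0.298 and 0.527 CPM in control saline libraries. The lowest of the controls, replicate 6, held 2 reads. The groups did not overlap, and the log2 difference was 2.64 ± 0.42 (SE; adjusted p = 0.000571). Brca1, a ubiquitin ligase that favours resection and helps bring Brca2 to breaks, had 3.99, 4.69 and 5.47 CPM in βKlf6KO saline and 1.65, 2.19 and 2.67 CPM in control saline libraries. Brca1 was the least changed of the 8, with a log2 difference of 1.10 ± 0.23 (SE; adjusted p = 0.00716).

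Brca2, a mediator of strand pairing, was the exception. It had 2.69, 3.28 and 3.49 CPM in βKlf6KO saline libraries, against 2.01, 2.43 and 4.14 CPM in control saline libraries. All 6 βKlf6KO libraries lay above the control mean but none above the highest control, replicate 4, one of the 3 libraries that stood apart. The log2 difference was 0.27 ± 0.24 (SE; adjusted p = 0.702), with a 95% interval of -0.23 to 0.77. Without the 3 libraries it was 0.40 (adjusted p = 0.0949), and after quantile normalization -0.01 (adjusted p = 0.996). Weighting libraries by their fit gave 0.43, and there Brca2 was called (adjusted p = 0.00590), in a fit that called 3018 genes against 378 without weights.

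Rad54l, a motor protein that helps a single strand invade the sister duplex, had 1.03, 1.18 and 1.90 CPM in βKlf6KO saline and 0.175, 0.297 and 0.402 CPM in control saline libraries. The log2 difference was 2.17 ± 0.33 (SE; adjusted p = 0.000513). In the annotation 1184 exonic bases of Rad54l overlap Lrrc41, whose log2 difference was 0.13 ± 0.27 (SE; adjusted p = 0.894). How the counting used strand is not known here. Exons of Parpbp, Fancd2 and Brca2 overlap those of Pmch (435 bases), Fancd2os (257 bases) and Gm42529 (41 bases), which were not analysed here. Fignl1, an ATPase that acts in recombination, had 4.03, 4.85 and 6.16 CPM in βKlf6KO saline libraries, against 0.540, 0.917 and 1.93 CPM in control saline libraries. The groups were separated, and the log2 difference was 2.29 ± 0.33 (SE; adjusted p = 0.000446). Parpbp, which binds PARP1 and restrains recombination, had 1.10, 1.80 and 2.30 CPM in βKlf6KO saline and 0.198, 0.384 and 0.554 CPM in control saline libraries. Its log2 difference was 2.29 ± 0.34 (SE; adjusted p = 0.000446). Parpbp thus stood higher together with genes that act for recombination.

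Of the genes tied to stalled or crosslinked forks, Brip1 is a helicase that binds Brca1. It had 2.16, 2.44 and 2.77 CPM in βKlf6KO saline libraries, against 0.491, 0.921 and 1.51 CPM in control saline libraries, a log2 difference of 1.41 ± 0.27 (SE; adjusted p = 0.00245). Fancd2, which is ubiquitinated on DNA at crosslinks as the central step of the Fanconi pathway, had 2.42, 3.06 and 3.77 CPM in βKlf6KO saline and 0.430, 1.01 and 1.501 CPM in control saline libraries. Its log2 difference was 1.68 ± 0.34 (SE; adjusted p = 0.00422). Neil3, a DNA glycosylase that can unhook some crosslinks at forks, had 1.36, 2.26 and 2.65 CPM in βKlf6KO saline libraries, against 0.134, 0.347 and 0.613 CPM in control saline libraries. Neil3 had the highest log2 difference of the 9, at 2.67 ± 0.40 (SE; adjusted p = 0.000446). Its 95% interval, 1.84 to 3.49, does not overlap that of Brca1, 0.62 to 1.58, and overlaps those of the other 6 called genes, though with Brip1, at 0.86 to 1.96, only at its end. These intervals come from the same libraries, and differences between genes were not tested.

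Levels per kilobase of exon were set side by side between genes, with the length taken as all annotated exons of a gene merged. This gave 7706 bases for Rad54l and 8422 for Exo1. Which transcripts the islets express was not tested, so the order below depends on this length. In βKlf6KO saline islets Fignl1 had the highest level, 1.02 ± 0.14 CPM per kilobase, followed by Brca1 at 0.554 ± 0.070 and Parpbp at 0.496 ± 0.125 (SD, n = 6 each). Fancd2 (0.381), Neil3 (0.369) and Brip1 (0.330) came next, then Brca2 (0.234), and Exo1 (0.171) and Rad54l (0.167) were lowest, in CPM per kilobase. The distances between Brca1 and Parpbp, between Fancd2, Neil3 and Brip1, and between Exo1 and Rad54l were smaller than the larger SD of each pair. In control saline islets Brca1 (0.260), Fignl1 (0.232) and Brca2 (0.198) led in CPM per kilobase, and Rad54l (0.0375) and Exo1 (0.0341) were again lowest. There the distances between Brca1 and Fignl1, between Fignl1 and Brca2, and between Rad54l and Exo1 were smaller than the larger SD of each pair. Brca2, seventh in mean level in βKlf6KO saline islets, was the third in control saline islets. Reads were few in the low genes, with 5 to 72 per library for Rad54l and 2 to 64 for Exo1, and 66 to 211 for Brca2.

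No member is next to another in the genome (GRCm38, GENCODE M21). Fignl1 (chr11:11787431-11808962), Brip1 (chr11:86058138-86201193) and Brca1 (chr11:101488764-101551955), all on the minus strand, share chromosome 11. The others are Exo1 (chr1:175880581-175913489, plus), Rad54l (chr4:116094264-116123690, minus), Brca2 (chr5:150522630-150570329, plus), Fancd2 (chr6:113531682-113597017, plus), Neil3 (chr8:53586867-53639065, minus) and Parpbp (chr10:88091432-88146941, minus). Several start head to head with another gene on the opposite strand. Nbr1, an autophagy receptor that starts 194 bases from Brca1, had a log2 difference of -0.18 ± 0.10 (SE; adjusted p = 0.460). Nup37, a nuclear pore gene 51 bases from Parpbp, had 0.16 ± 0.13 (SE; adjusted p = 0.669), and Emc3, of the endoplasmic reticulum membrane complex and 30 bases from Fancd2, had 0.06 ± 0.08 (SE; adjusted p = 0.836). Pomgnt1, a glycosyltransferase gene 150 bases from Rad54l, had 0.23 ± 0.26 (SE; adjusted p = 0.780). None of these 4 neighbours passed the test beside its called partner.

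Genes of the cell cycle are often controlled by E2F factors or by complexes that bind a CHR element (TTTGAA) near a CCAAT box. Promoter sequences from RefSeq (GRCm38.p6), from 250 bases before to 50 after the start, matched 7 of the 9 genes, without Exo1 and Fancd2. Motifs were searched on both strands. The E2F forms TTTCCCGC, TTTGGCGC and TTTCGCGC were in 1.11%, 0.537% and 0.318% of 27018 promoters, and only the first was found among the 7, in Brca2. The core GGCGCG was in 19.4% of promoters and in 4 of the 7 (Brca2, Brip1, Fignl1 and Neil3), and TTCCCGCC, in 2.24% of promoters, was in none. CCAAT was in 37.9% of promoters and in 4 of the 7 (Rad54l, Brca1, Brip1 and Parpbp), and TTTGAA was in 18.1% and in 1, Parpbp. TATAAA was in 14.2% of promoters and in 1 of the 7, Brca2. Over the 10173 promoters of tested genes, GGCGCG was in 37.2% and CCAAT in 38.4%. A match is a run of letters, not a bound site. The 250 bases before the start are printed for Brip1 and Parpbp, which rose, and for Brca2, which did not pass the test. Capitals mark, for Brip1, 3 CCAAT boxes (as the reverse complement ATTGG) and, for Parpbp, 1 such box and the CHR element. For Brca2 they mark the TATA box and then the first E2F form and the core, both as reverse complements. Motifs are marked where they lie wholly inside the 250 bases.
Brip1, chr11:86201194-86201443, minus strand: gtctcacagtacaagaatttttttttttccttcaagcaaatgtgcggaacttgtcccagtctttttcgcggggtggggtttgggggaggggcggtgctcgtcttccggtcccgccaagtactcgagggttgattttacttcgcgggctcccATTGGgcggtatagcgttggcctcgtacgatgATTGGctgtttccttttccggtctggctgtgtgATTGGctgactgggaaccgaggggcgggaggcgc
Parpbp, chr10:88146942-88147191, minus strand: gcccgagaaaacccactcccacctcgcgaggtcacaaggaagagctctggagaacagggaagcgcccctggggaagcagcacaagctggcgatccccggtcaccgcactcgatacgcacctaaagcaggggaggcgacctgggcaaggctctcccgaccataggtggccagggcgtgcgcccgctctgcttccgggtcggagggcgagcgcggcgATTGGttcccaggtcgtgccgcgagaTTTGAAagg
Brca2, chr5:150522371-150522620, plus strand: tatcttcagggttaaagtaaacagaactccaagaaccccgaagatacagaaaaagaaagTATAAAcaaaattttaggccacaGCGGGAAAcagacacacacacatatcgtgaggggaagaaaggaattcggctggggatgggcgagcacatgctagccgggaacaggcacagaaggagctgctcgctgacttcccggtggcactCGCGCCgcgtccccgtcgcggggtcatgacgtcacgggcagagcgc

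After S961, none of the 9 genes was called between genotypes, while 2.35% of all tested genes were called higher in βKlf6KO. The calls over all genes depended on the fit. They were 593 in either direction in the main fit and 35 with only the S961 groups fitted. The median log2 difference of the 9 was 0.51, against 0.02 over all tested genes. After quantile normalization it was 0.07, against -0.02 over all genes, with Rad54l at -0.12 and Brip1 at -0.17, so the direction of these 2 after S961 depends on the scaling. At an unadjusted p below 0.05 there were 4 of the 9 (Fignl1, Parpbp, Fancd2 and Neil3) and 3107 of 13591 genes. Neil3 came nearest, with 0.602, 1.43 and 1.77 CPM in βKlf6KO S961 libraries (lowest, median and highest of 8), against 0.260, 0.481 and 1.43 CPM in control S961 libraries. Its log2 difference was 1.14 ± 0.35 (SE; adjusted p = 0.0550), and all 8 βKlf6KO libraries lay above the control mean on the log2 scale. Neil3 passed the threshold with the lane tag as a covariate (adjusted p = 0.0494), in the replicate block (0.0436) and with voom weights (0.0453). It also passed in 3 of the 28 fits that left out 1 library, and it did not in the rest or under the other settings. Those gave 0.0532 on the log2(CPM + 1) scale, 0.0571 with no filter, 0.0631 with library weights, 0.0799 without the 3 libraries that stood apart, 0.0961 with the lymphocyte and macrophage means as covariates, 0.148 with only the S961 groups fitted, 0.332 after quantile normalization and 0.5003 with Mki67 as a covariate. The log2 difference of Neil3 was 0.65 after quantile normalization and 0.35 with Mki67 as a covariate.

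For the other 8 genes after S961 the groups overlapped and the log2 differences were smaller. Fignl1 had 1.97, 2.92 and 3.29 CPM in βKlf6KO S961 libraries, against 0.615, 1.92 and 3.43 CPM in control S961 libraries, a log2 difference of 0.65 ± 0.29 (SE; adjusted p = 0.173). Parpbp had a log2 difference of 0.71 ± 0.29 and Fancd2 one of 0.62 ± 0.29 (SE; adjusted p = 0.145 and 0.202). Exo1 (0.51), Rad54l (0.40), Brca1 (0.33) and Brip1 (0.15) followed, with adjusted p-values of 0.336 to 0.693. Brca2 was at -0.01 ± 0.21 (SE; adjusted p = 0.973), with a 95% interval of -0.45 to 0.42, and at 0.33 (adjusted p = 0.106) without the 3 libraries that stood apart. In those libraries Brca2 had 2.51 and 2.89 log2 CPM (control S961 replicates 2 and 8) and 2.05 log2 CPM (control saline replicate 4), the highest values of the control groups.

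**Figure D2:**
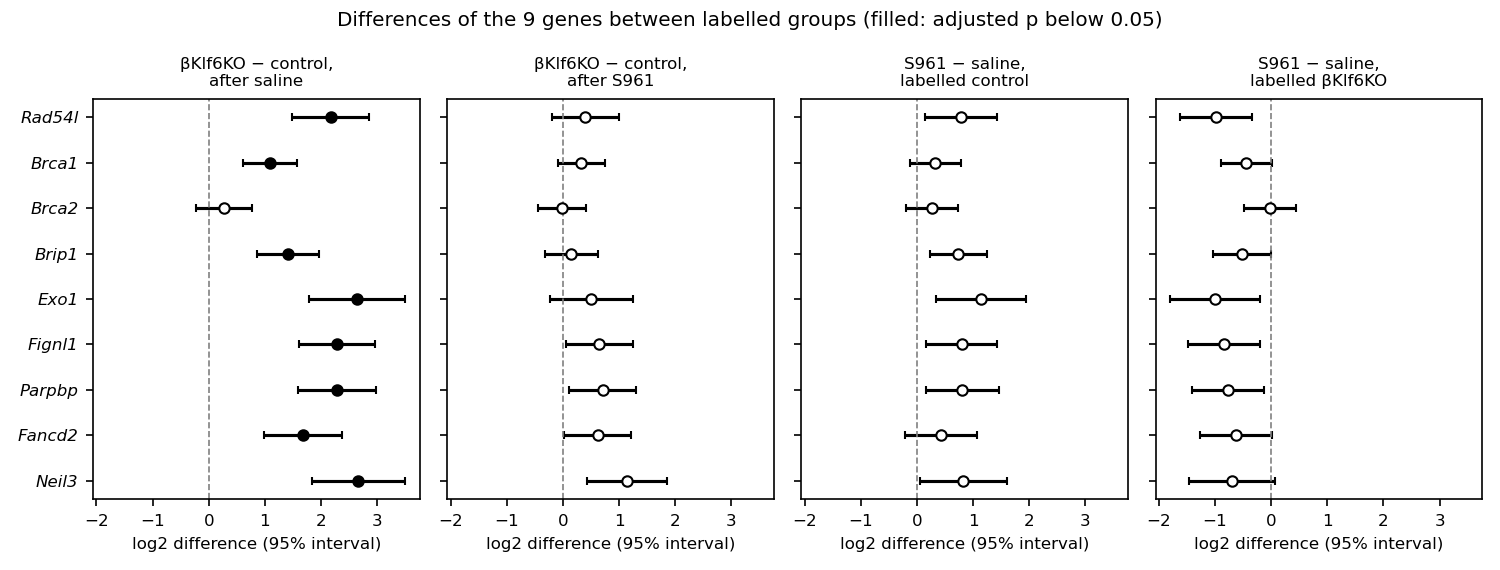
Log2 differences of the 9 genes (horizontal axes) with 95% intervals from the fit to all 28 libraries, in 4 comparisons of labelled groups; filled points have an adjusted p below 0.05. Filled points appear for 8 genes in the comparison of genotypes after saline and in no other comparison. The points of S961 against saline, none of them filled, lie above 0 in control and below 0 in βKlf6KO islets. Their intervals cross 0 for Brca1, Brca2 and Fancd2 in both genotypes and for Neil3 in βKlf6KO islets.

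S961 was compared with saline in each labelled genotype, and no gene of the table was called in either (0% of 13591). The treatment labels were not checked, and an absence of calls does not show that S961 changed no gene. The 4 comparisons share groups, among them control saline and βKlf6KO saline, so their values are not independent. In control islets the log2 differences of the 9, S961 minus saline, were 0.27 (Brca2) to 1.14 (Exo1), with an adjusted p of 0.973 for each. By limma 6 of the 9 and 104 of all genes had an unadjusted p below 0.05, and with voom weights 5 of the 9 and 100 of all genes. Exo1 had 0.287, 0.415 and 1.25 CPM in control S961 libraries, against 0.0583, 0.298 and 0.527 CPM in control saline libraries. The groups overlapped, although all 8 S961 libraries lay above the saline mean on the log2 scale.

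In βKlf6KO islets the log2 differences, S961 minus saline, were -0.995 (Exo1) to -0.02 (Brca2), with a median of -0.70 and an adjusted p of 0.999728 for each. By limma 5 of the 9 and 413 of all genes had an unadjusted p below 0.05, and with voom weights 8 of the 9 and 495 of all genes. Fignl1 had 1.97, 2.92 and 3.29 CPM in βKlf6KO S961 libraries, against 4.03, 4.85 and 6.16 CPM in βKlf6KO saline libraries. For Exo1 and Fignl1 each of the 8 S961 libraries lay below each of the 6 saline libraries, which held for 26 of the tested genes (0.191%). Exo1 reached 1 CPM in 8 libraries, 6 of them βKlf6KO saline, so it entered the test through the higher group of this comparison. Rad54l had 0.294, 0.600 and 1.34 CPM in βKlf6KO S961 libraries, against 1.03, 1.18 and 1.90 CPM in βKlf6KO saline libraries, and these overlapped.

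The difference of the S961 responses, βKlf6KO minus control, was negative for all 9 genes, and no gene of the table was called (0%). It ran from -2.13 ± 0.55 for Exo1 and -1.77 ± 0.44 for Rad54l to -0.29 ± 0.32 for Brca2 (SE, log2), with a median of -1.52 and an adjusted p of 0.999995 for each. By limma 8 of the 9 and 350 of all genes had an unadjusted p below 0.05, and with voom weights the same 8 of the 9 and 372 of all genes. This contrast contains the genotype difference after saline.

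The 8 genes other than Brca2 varied together from library to library. Over the 28 libraries, Pearson correlations of their 28 pairs were 0.62 to 0.92 with a median of 0.81, and over deviations from the group means 0.09 to 0.77 with a median of 0.50. The 8 pairs that include Brca2 were at -0.02 to 0.48 over the libraries with a median of 0.21. Over deviations from the group means they were at -0.29 to 0.49 with a median of 0.08. The highest of these, 0.49 with Brca1, lay inside the range of the other pairs. These are descriptions over libraries that share groups, depth and cell makeup. Mki67, a marker of dividing cells, had 16.4, 17.6 and 28.4 CPM in βKlf6KO saline libraries, against 0.874, 1.36 and 5.96 CPM in control saline libraries. After S961 it had 6.93, 10.7 and 14.0 CPM in βKlf6KO libraries, against 1.27, 2.93 and 20.3 CPM in control libraries. The 8 genes correlated with Mki67 at 0.78 to 0.92 over the libraries, and at 0.42 to 0.79 over deviations from the group means. For Brca2 these values were 0.13 and -0.05.

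Within the control S961 group, replicates 4 and 6 were high in Mki67, at 4.18 and 4.35 log2 CPM, where the other 6 libraries had 0.35 to 1.95. These libraries also had the highest mean log2 CPM of the 9 genes in that group, 0.85 and 1.02, against -0.64 to 0.22 in the others. Fancd2, for example, had 1.44 and 1.89 log2 CPM in these libraries and -0.55 to 0.26 in the other 6. Over all βKlf6KO libraries the mean of the 9 genes was 0.11 to 1.504, so both lay inside that range. Neil3 was called between genotypes after S961 when either of them, or control saline replicate 4, was left out. With Mki67 as a covariate in the fit, no gene was called after saline, the 9 included (adjusted p = 0.882 for Neil3), and the median difference of the 9 was 0.66. Mki67 itself differs between the groups, so in that fit its part and that of the genotype cannot be told apart.

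**Figure D3:**
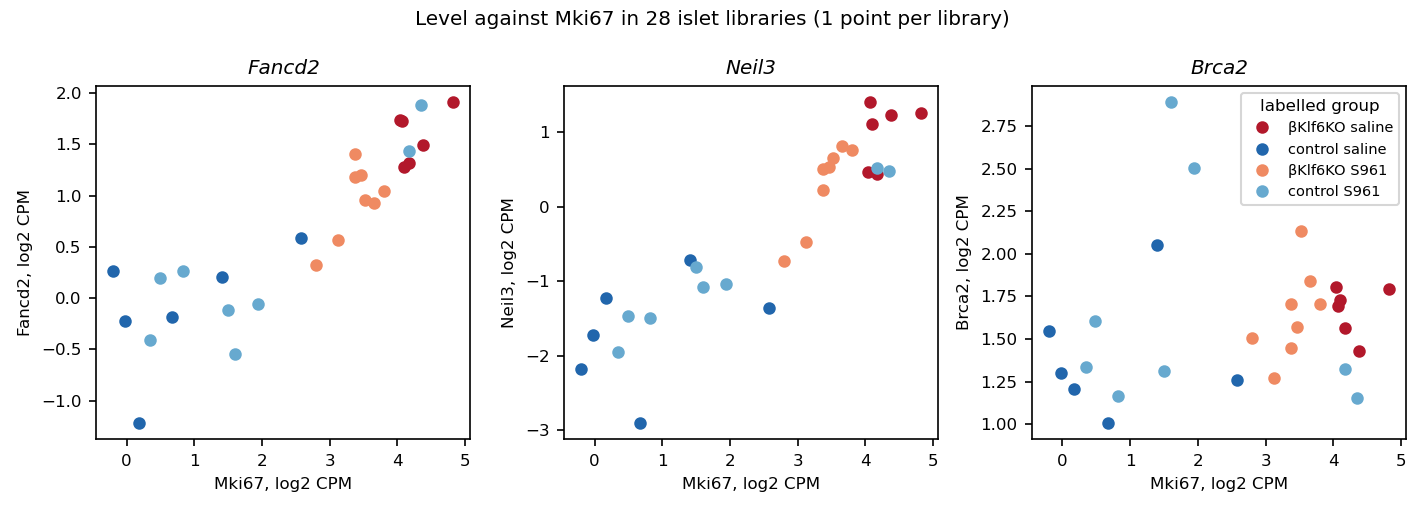
Fancd2, Neil3 and Brca2 (vertical axes, log2 CPM) against Mki67 (horizontal axis, log2 CPM), with 1 point per library, coloured by labelled group. Fancd2 and Neil3 are higher where Mki67 is higher, also in control S961 replicates 4 and 6 (Mki67 at 4.18 and 4.35), and Brca2 shows no such order.

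The genes most like the mean of the 9 over the 28 libraries, among 13189 compared, were Shcbp1 and Ect2 (each Pearson r = 0.960), Ncapg (0.946), Pbk (0.940) and Hmmr (0.939). Slfn9 (0.937), Prc1 (0.936), Kif4 (0.935), Melk (0.934) and Ccna2 (0.933) followed. Ect2, Prc1 and Kif4 act in cytokinesis, Ncapg is a condensin subunit and Ccna2 a cyclin. Member by member, the nearest gene was Pole for Rad54l (0.874), Ect2 for Brca1 (0.910), Ube2t for Brip1 (0.895), Uhrf1 for Exo1 (0.877), Shcbp1 for Fignl1 (0.948), Birc5 for Parpbp (0.927), Cdca2 for Fancd2 (0.947) and Prc1 for Neil3 (0.951). Brca2 was nearest to Topbp1 (0.898), a scaffold of the replication stress checkpoint. Of all genes compared, 32 had an r of at least 0.9 with the mean of the 9.

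Most other genes of homologous recombination did not pass the test. The repair lists, like the genes described, were chosen with earlier results of these data known, so the contrast between them is a description. After saline 3 of 36 tested others were called higher in βKlf6KO and none lower, and their median log2 difference was 0.05. For comparison, 2.09% of all tested genes were called higher. Among the 3 were Palb2, which bridges Brca1 and Brca2 (0.85 ± 0.21, SE; adjusted p = 0.0253), and Bard1, the Brca1 partner (1.13 ± 0.28, SE; adjusted p = 0.0273). The count was small and changed with the libraries and settings, through Palb2 and Bard1, while the third gene was called in each of 28 fits that left out 1 library and after quantile normalization. The count was 1 without control saline replicate 2, without βKlf6KO saline replicate 3 or 4 and after quantile normalization, and 2 without control saline replicate 1, 3 or 6. It was 5 without the 3 libraries that stood apart, and 8 higher and 1 lower with library weights. Those fits called 690 and 3018 of 13591 tested genes. With Mki67 or the lymphocyte and macrophage means as covariates it was 0, as it was among the 28 that passed a filter at 5 CPM. Of 14 other Fanconi genes 2 were called higher, Fanci, the partner of Fancd2 (3.31 ± 0.69, SE; adjusted p = 0.00596), and Ube2t, the ubiquitin-conjugating enzyme of that step (1.001 ± 0.20, adjusted p = 0.00322), and the median of the list was 0.04. Both were called in each fit that left out 1 library.

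After saline 1953 of 13591 tested genes (14.4%) had an unadjusted p below 0.05, and 2.09% were called higher and 0.692% lower. End joining, the pathway that rejoins ends without a template and needs no replication, had 0 of 11 genes called by limma or with voom weights, with a median of -0.18. By limma 1 of the 11 had an unadjusted p below 0.05, Nhej1, at 0.51 ± 0.22 (SE; adjusted p = 0.278). With library weights 2 end joining genes, Prkdc and Rif1, were called lower, in a fit that called 3018 of 13591 genes. Of 12 other base excision genes 0 were called by limma, with voom weights or with library weights, where Neil3, also a glycosylase, was. By limma 3 of the 12 had an unadjusted p below 0.05, and the smallest was that of Smug1, at -0.28 ± 0.11 (SE; adjusted p = 0.204). Of 11 damage checkpoint genes 2 were called higher, Clspn (2.92 ± 0.52, SE; adjusted p = 0.00137) and Chek1 (1.25 ± 0.30, adjusted p = 0.0214), which act together at stalled forks. Chek1 was not called without control saline replicate 1, 2 or 3 or βKlf6KO saline replicate 4 or 6.

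For scale, 24 of 25 mitosis genes were called higher, with a median of 3.17, and 7 of 26 DNA replication genes, with a median of 0.50. Among the replication genes were Cdc6, which loads the replicative helicase (2.33 ± 0.35, SE; adjusted p = 0.000446), and Pole, the leading strand polymerase (2.48 ± 0.39, adjusted p = 0.000571). The differences of Rad54l, Exo1, Fignl1, Parpbp and Neil3, at 2.17 to 2.67, lay between those medians, as did those of Brca1, Brip1 and Fancd2, and that of Brca2 lay below both. After S961 no gene of the other recombination, Fanconi, end joining and base excision lists was called by limma or with voom weights. By limma 8 of 36, 1 of 14, 4 of 11 and 5 of 12 had an unadjusted p below 0.05, in that order. The share over all tested genes was 22.9%. With library weights 1 recombination gene was called, in a fit that called 560 of 13591 genes. Of the checkpoint genes Clspn was higher (1.79 ± 0.45, SE; adjusted p = 0.0291) and Mdc1 lower (-0.31 ± 0.07, adjusted p = 0.0216). Of the mitosis genes 7 and of the replication genes 2 were called higher after S961. Of all tested genes 2.35% were called higher and 2.01% lower there. A fit of only the S961 groups called 35 genes in either direction, against 593 in the main fit.

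**Figure D4:**
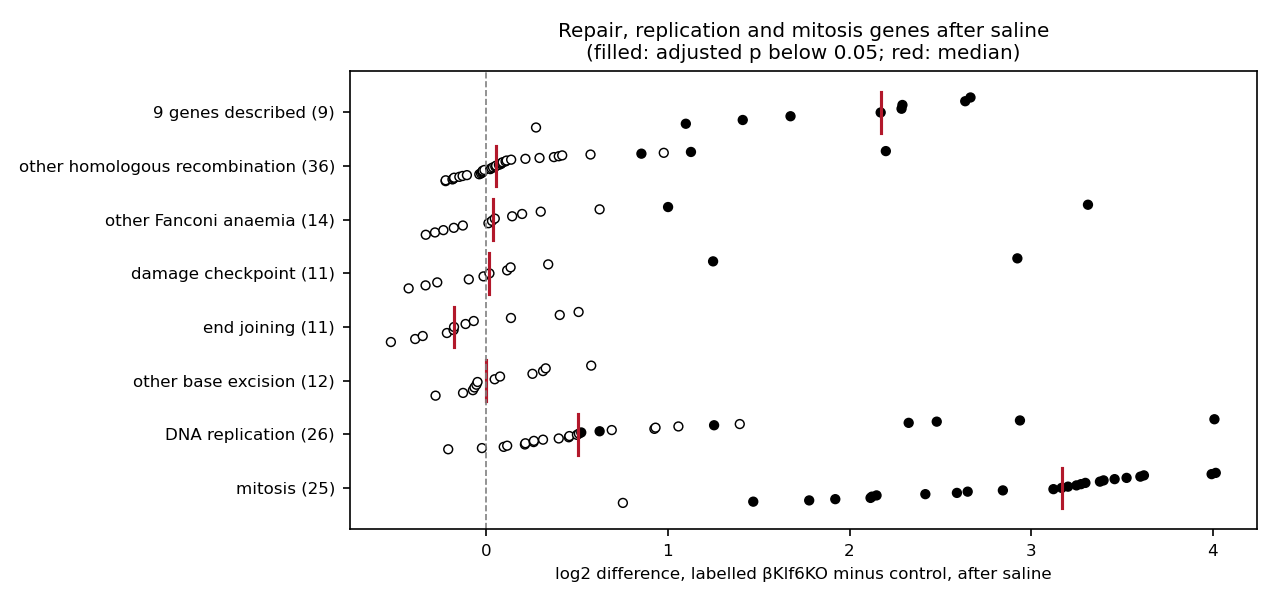
Log2 differences after saline, labelled βKlf6KO minus control (horizontal axis), with 1 point per tested gene in each list, the number of genes in brackets, filled where the adjusted p was below 0.05, and the median in red. The 9 genes described have a median of 2.17, between those of the replication genes (0.50) and the mitosis genes (3.17), and the medians of the other repair lists lie between -0.18 and 0.05.

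Some markers of other cell types differed between the labelled genotypes after saline, where 2.09% of all tested genes were called higher and 0.692% lower. The summed level of 11 lymphocyte markers was 6.73 to 102 CPM in βKlf6KO saline libraries, against 7.07 to 14.1 CPM in control saline libraries, and 2 of 7 tested were called higher. The 19 macrophage markers summed to 217 to 960 CPM in βKlf6KO saline libraries, against 145 to 222 CPM in control saline libraries, with 5 of 18 called higher. Fibroblast markers had 2 of 12 called higher, β-cell markers 2 of 12 lower, α-cell markers 1 of 7 higher, and endothelial, acinar and ductal markers 0. No marker of these lists was at 0 in every library of a group. In βKlf6KO saline replicates 2 and 5 the lymphocyte sum was 6.73 and 10.0 CPM, below the highest control, and the mean log2 CPM of the 9 genes was 1.34 and 1.30, against 1.12 to 1.504 in the other 4. With the lymphocyte and macrophage means as covariates, Brip1, Fignl1, Parpbp and Neil3 were called, and the median difference of the 9 was 1.63 in place of 2.17. The genes no longer called had log2 differences of 1.15 (Brca1), 2.25 (Exo1), 1.58 (Fancd2) and 1.44 (Rad54l), against 1.10, 2.64, 1.68 and 2.17 without the covariates. Those of Neil3 (3.01), Brip1 (1.63) and Brca2 (0.69) were higher than without them, and the calls over all genes were 46 in place of 378. After S961 1 of 18 macrophage and 5 of 12 fibroblast markers were higher and 4 of 12 β-cell markers lower in βKlf6KO islets. Among all tested genes 2.35% were called higher and 2.01% lower in that comparison. Of the ductal markers 1 of 9 was called higher (median log2 difference 0.85), of the α-cell markers 1 of 7 higher and 1 lower, and of 9 acinar markers none, although all 9 differences were positive (median 0.95). The part of these other cells in the differences of the 9 genes was not tested.

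Lane tags in the library descriptions, from 4 to 7, each held all groups. The difference after saline was positive in every lane tag for the 8 called genes, at 1.13 to 3.03 for Fignl1, 1.91 to 3.77 for Neil3 and 1.03 to 1.48 for Brca1 (log2, with 1 or 2 libraries of a group in each). For Brca2 it was 0.01 to 0.79.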

How the data were processed

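The authors deposited log2 CPM values of 14219 genes in 28 libraries, made from stranded mRNA libraries read as single ends of 125 bases, per the labels' protocols. STAR 2.5.3a, HTSeq 0.9.1 and edgeR on GRCm38 are named in the submitters' processing notes. Taking each value as log2 of reads plus 0.5, scaled, returned whole reads within 0.05 for 100% of the values of each library. A count of 0 allows up to 3 reads, 0.0685 to 0.105 CPM by library, and this limit covers counting error only. No column was left unmatched.

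The test took the 13591 genes that reached 1 CPM in 6 or more libraries. Means of the 4 labelled groups were fitted by limma 3.58.1 under R 4.3.3, over all 28 libraries at once (empirical Bayes with an intensity trend), two-sided, with Benjamini-Hochberg adjustment over all tested genes, and every adjusted p of a gene is from this fit unless another is named. The checks of the labels were exact permutation tests, adjusted over 4. As every library came from its own mouse, the p-values measure the spread among mice.

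Coordinates and merged exon lengths are from GENCODE M21 and promoters from RefSeq. The 9 genes, the lists and the motifs were chosen with earlier results of these data known. Named were all 9 genes in each comparison, Klf6, Ins1 to Ins2 and Mki67 as checks, up to 6 called members of each repair list with the smallest p after saline (up to 3 elsewhere, and 1 where none was called), the genes nearest in pattern, and overlapping or head-to-head neighbours (matched by Ensembl ID). Other genes named were chosen after their values were seen. Of the recombination list 1 gene is not reported here, and 1 called gene is counted but not named.
Alternatives were log2(CPM + 1), no filter, a filter at 5 CPM, a fit restricted to the groups compared, the lane tag, replicate number, Mki67 or immune marker means as covariates, quantile normalization, library weights, voom weights on recovered reads, and leaving out 3 libraries or each in turn. As the deposited unit is log2, the recovered reads were used only in the fit with voom weights, and no count model was run.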

Additional observations from a re-analysis of the deposited data

Results flagged for a closer look

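In the 36 sets of 1 gene in 1 labelled group, no library stood far enough from the others to be marked by Dixon's test at the 95% level, and no difference between the responses to S961 passed its test. Dixon's test weighs the gap from the most extreme library to the next. A pair that stands apart together can therefore go unmarked, as with control S961 replicates 4 and 6 in Fancd2.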

How the results depend on the processing

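After saline, the count of 8 called genes among the 9 was 8 or 9 under log2(CPM + 1), no filter, only the groups compared, the lane tag as a covariate, the replicate block, library weights (9), voom weights and without the 3 libraries that stood apart, and 8 in every fit that left out 1 library. It was 6 after quantile normalization, where Brca1 (0.84, adjusted p = 0.104) and Brip1 (1.05, adjusted p = 0.0690) kept a positive difference but were not called, 4 with the lymphocyte and macrophage means as covariates and 0 with Mki67 as a covariate. After S961 the count of 0 became 1, Neil3, with the lane tag as a covariate, in the replicate block and with voom weights, and was 0 to 1 over the fits that left out 1 library. In both comparisons of S961 with saline and in the difference of responses it was 0 under every alternative that gave a value. None of the 9 genes changed direction where it was called. The replicate block changed no other call. Same-numbered libraries had correlations of their deviations of both signs between genotypes, -0.54 to 0.46 after saline and -0.71 to 0.49 after S961. Between S961 and saline they were -0.58 to 0.48 in control and -0.61 to 0.56 in βKlf6KO islets. Whether the numbers pair mice was thus not settled, and the main fit used no pairing. A filter at 5 CPM kept none of the 9 genes and gave no value, and a fit of only the groups compared gave none for the difference of responses. On the log2(CPM + 1) scale the median difference after saline was 0.93, since this scale compresses low values. Low counts limit Exo1, Rad54l and Neil3 in control islets, where single libraries held 2, 5 and 4 reads. Over all genes, 378 were called after saline, 117 at the filter of 5 CPM, 690 without the 3 libraries, 3018 with library weights and 46 with the immune means. After S961, 593 were called, 35 with only the S961 groups fitted and 106 with the immune means. Fits that left out 1 library called 177 to 817 after S961. Medians of all genes moved by less than 0.1 under each setting.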
